A study of Mus musculus with 6 samples.

Results

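The genes described here are 8 growth factor and growth factor binding protein genes named as products of tumour macrophages: Nrg1, Hbegf, Pdgfa, Pdgfb, Vegfa, Igf1, Igfbp4 and Igfbp5. They were taken by gene symbol from the 32285 genes listed for every library, and each of the 8 symbols matched 1 row. Their raw UMI counts were summed per library within cell classes gated on marker genes, and given as UMIs per 1000000 UMIs of the class (CPM). The genes were chosen by values measured in these same libraries, so their levels and site differences are given as a description. The name of macrophage products held only in part by these sums. Igf1 and Pdgfb had their 2 highest class means in microglia-like and macrophage-like cells, while Nrg1, Hbegf, Vegfa, Igfbp4 and Igfbp5 had their highest class mean outside both. Pdgfa was at nearly the same level in tumour-like cells and microglia-like cells, with class means of 76.8 and 75.1 CPM over 2 libraries each that were not the same pair.

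The cells were leukocytes sorted from mouse tumours after injection of a single brain-metastatic breast cancer line at either of 2 sites, and single-cell RNA was read from the 3' end on the 10x Genomics platform. BrM libraries came from brain tumours of female C57BL/6J mice aged 10 to 12 weeks. MFP libraries came from mammary fat pad tumours of female C57BL/6J mice of the same age. Each site had 3 libraries. Every library was sorted as CD45+ DAPI- RedDot-1+ cells, so CD45, the pan-leukocyte surface protein, was used at both sites, and tumour cells appear only where they escaped the sort. Nothing in the labels ties a library to its own animal, and the p-values below therefore describe spread among libraries, which may be technical.

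Growth factors of these families act on neighbouring cells through receptor tyrosine kinases. Nrg1 (neuregulin 1) and Hbegf (heparin-binding EGF-like growth factor) are ligands of the EGF receptor family and are released from the cell surface by metalloproteases. Pdgfa and Pdgfb encode the chains of platelet-derived growth factor, which acts on fibroblasts, pericytes and glial progenitors, and Vegfa drives the growth of blood vessels and is induced by low oxygen. Igf1 promotes growth and survival through the IGF1 receptor, and Igfbp4 and Igfbp5 encode secreted proteins that bind insulin-like growth factors and set how much reaches that receptor.

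After filtering, 43608 cells remained, between 6159 and 7892 per library, with a median of 4918.5 to 7839 UMIs per cell, and the deposited libraries held 50692794 to 70944735 UMIs each. The libraries fell into 2 kinds by their macrophage content. Macrophage-like cells numbered 58, 2082 and 1966 in BrM 1, 2 and 3 and 60, 28 and 2286 in MFP 1, 2 and 3, which is 0.820%, 31.4% and 28.6% of gated cells in BrM and 0.842%, 0.372% and 41.0% in MFP. The CPM of BrM 1, MFP 1 and MFP 2 rest on few macrophage UMIs, yet these libraries count as much as the others in site means, class means and permutation tests. Without BrM 1 or MFP 1 edgeR called 549 and 707 genes in macrophages, against 295 with all libraries. Pairs of libraries shared 10 to 39 cell barcodes. The macrophage gate held its 12 marker genes at a summed 25760 to 36010 CPM in BrM and 21110 to 29030 CPM in MFP. Microglia-like cells, the resident macrophages of the brain, numbered 2, 416 and 296 in BrM and 0, 0 and 2 in MFP. The tumour-like class held 117 cells over all libraries, with Krt8 at 1293 CPM in BrM 2 and 3071 in MFP 3, and with Ptprc, the gene of CD45, at 15.8 in BrM 2 and 14.2 in MFP 3. It had 53 cells in BrM 2, with a median of 14936 UMIs per cell and 1015143 UMIs in all. In MFP 3 it had 29 cells, with a median of 1190 UMIs per cell and 281059 UMIs in all.

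Nrg1 was the member with the clearest difference between the sites in macrophages. In macrophage-like cells it reached 12.2, 20.9 and 23.9 CPM in BrM 1, 2 and 3, against 2.35, 0 and 7.27 CPM in MFP 1, 2 and 3. Every BrM library lay above every MFP library. Behind them stood 5, 499 and 491 UMIs for BrM, against 1, 0 and 233 for MFP. The floor of 3 UMIs in MFP 2 is 23.5 CPM, a value within the BrM range, and levels below that floor were not resolved there. Nrg1 rose 1.76 ± 0.22 (SE) on the log2 scale in BrM over MFP by edgeR's quasi-likelihood test (Benjamini-Hochberg adjusted p = 0.000281). The exact permutation test of the CPM values gave p = 0.1, the smallest that 3 libraries against 3 allow, and 9.59% of the 11165 genes tested did not overlap between the sites. By DESeq2, which called 3 genes in all (0.0269%; 167 at an unadjusted p under 0.05), Nrg1 was not called (log2 difference 1.98, adjusted p = 0.9999). Nor was it by limma voom, which called 0 genes (819 at an unadjusted p under 0.05; log2 difference 1.85, adjusted p = 0.131). Without BrM 2, BrM 3 or MFP 3, Nrg1 had too few counts to be tested.

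In BrM 2 and BrM 3 against MFP 3, Nrg1 was higher in BrM in each part of the macrophage class that both sites held. With MFP 3 the only MFP library with many macrophages, the parts have no replicate check for MFP. In BrM 1, MFP 1 and MFP 2 each part held at most 5 UMIs of Nrg1. Macrophages were divided by marker genes into lipid-associated cells (Gpnmb, Spp1), cells with Vcam1 and H2-M2, resident-like cells (Mrc1, Folr2, Lyve1) and others. Lipid-associated cells had 27.2 and 30.0 CPM of Nrg1 in BrM 2 and BrM 3, against 11.2 CPM in MFP 3. The Vcam1 H2-M2 part had 17.5 and 17.9 CPM in BrM 2 and BrM 3, against 4.55 CPM in MFP 3. With each cell thinned to 2000 UMIs, a UMI of Nrg1 was found in 3.40% and 4.25% of macrophage-like cells in BrM 2 and BrM 3 and in 1.59% in MFP 3. Without thinning the shares were 12.6% and 12.3% in BrM 2 and BrM 3 and 4.02% in MFP 3. Thinned T cells, which should lack Nrg1, had a UMI in 0% to 0.0426% of cells in BrM and 0% to 0.0826% in MFP, below the macrophage share of each library with many macrophages.

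Nrg1 was higher in monocytes than in macrophages of the same library in all 6 libraries. Monocyte-like cells, the circulating precursors of many tissue macrophages, had 48.2, 65.6 and 76.8 CPM in BrM and 38.7, 26.2 and 82.2 CPM in MFP. These ranges overlap, and the edgeR difference was 0.20 ± 0.29 (adjusted p = 0.821). Whether the site difference in macrophages differs from that in monocytes was not tested. Monocyte markers summed to 909.5 to 1803 CPM in the macrophage gate of BrM, with 10 to 11 of 11 genes detected, and to 830.4 to 1220 CPM in that of MFP, with 7 to 11 detected. Their part in the Nrg1 result was not tested. Mature dendritic cells, the Ccr7+ cells that migrate to lymph nodes, had 42.5 and 43.3 CPM in BrM 2 and BrM 3 and 34.8 CPM in MFP 3, tumour-like cells had 56.2 CPM in BrM 2 and 53.4 in MFP 3, and microglia-like cells had 0.561 and 0.290 CPM in BrM 2 and BrM 3. B cells had 0 UMIs of Nrg1 in all 6 libraries.

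**Figure D1:**
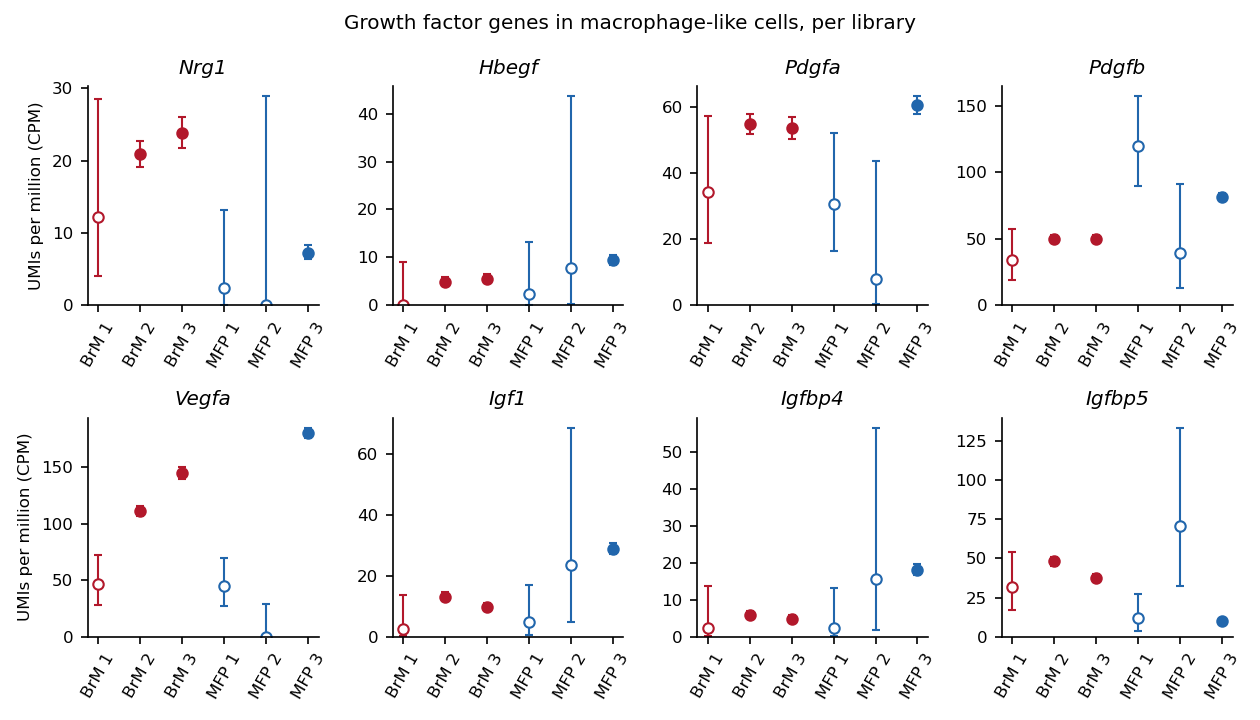
Level of each gene in macrophage-like cells per library, in CPM on a linear axis, with BrM libraries in red on the left and MFP libraries in blue on the right. Points are CPM of the summed UMIs and bars are exact Poisson 95% intervals, which cover counting error only; open points are the libraries with under 1% macrophages among gated cells. Nrg1 spans 12.2 to 23.9 CPM in BrM and 0 to 7.27 in MFP, and the other genes overlap between the sites.

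Hbegf, the other EGF family ligand, was low in macrophages and was not called between the sites. It had 0, 4.89 and 5.49 CPM in BrM macrophages, against 2.35, 7.83 and 9.33 CPM in MFP macrophages, and the sites overlap. The values rest on 0, 117 and 113 UMIs in BrM and on 1, 1 and 299 in MFP. The edgeR difference was -0.69 ± 0.29 on the log2 scale (adjusted p = 0.309). T cells, at 3.39 to 7.77 CPM in BrM and 3.24 to 5.51 in MFP, were near the macrophage level, as were NK cells at 4.43 to 9.57 CPM in BrM and 6.92 to 8.31 in MFP, while B cells had 0 UMIs in BrM 2, BrM 3 and MFP 3. How much of the macrophage sums is free RNA was not tested. Resident-like macrophages of MFP 3 had 56.7 CPM, against 16.9, 2.10 and 6.14 CPM in the lipid-associated, Vcam1 H2-M2 and other parts of that library and 3.24 CPM in its T cells. Lipid-associated cells had 6.16 and 9.45 CPM in BrM 2 and BrM 3, whose T cells had 5.01 and 3.39 CPM. Among the classes, tumour-like cells were highest, at 162 CPM in 53 cells of BrM 2 and 228 in 29 cells of MFP 3. Neutrophils followed, at 30.8 and 62.4 CPM in BrM 2 and BrM 3 and 80.6 CPM in MFP 3.

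Of the 9 other EGF and neuregulin ligands, 3 had enough counts in macrophages to be tested and 0 were called. The highest was Areg (amphiregulin), averaging 7.79 ± 4.8 CPM over BrM and 5.66 ± 6.19 over MFP (SD, n = 3 libraries each), with a log2 difference of -0.05 (adjusted p = 0.975), the opposite sign to the difference of the means. Tgfa, which encodes transforming growth factor alpha, had 3.12 ± 3.64 CPM in BrM and 0.836 ± 1.31 CPM in MFP (adjusted p = 0.0732). The 4 receptor genes were too low to test: Erbb3 reached at most 1.25 CPM in BrM and 1.97 in MFP, and Egfr at most 0.209 in BrM and 1.03 in MFP. Of the 16 sheddases and proprotein convertases, which release such ligands from their precursors, 12 were tested and 0 were called. Furin averaged 83.2 ± 14.0 CPM over BrM and 133 ± 74.9 over MFP, and Adam17, which cleaves Hbegf, 99.7 ± 33.6 over BrM and 106 ± 51.0 over MFP (SD, n = 3 libraries each).

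Both platelet-derived growth factor genes were carried by macrophages and more so by microglia. Pdgfa had 34.2, 54.9 and 53.6 CPM in BrM macrophages, against 30.6, 7.83 and 60.5 CPM in MFP macrophages. The sites overlap, and the edgeR difference was 0.16 ± 0.26 (adjusted p = 0.864). Microglia-like cells of BrM 2 and BrM 3 had 75.0 and 75.2 CPM of Pdgfa. T cells had at most 1.47 CPM in BrM and 4.74 in MFP, below macrophages of every library. Plasmacytoid dendritic cells, the main producers of type I interferon, also held Pdgfa, at 30.4, 44.3 and 42.2 CPM in BrM and 16.2 CPM in MFP 3, the only MFP library with at least 20 such cells. NK cells had 6.00, 33.3 and 27.1 CPM in BrM and 5.47, 7.14 and 11.2 CPM in MFP, and at each site the libraries with many macrophages were the highest. In BrM 2, BrM 3 and MFP 3 the NK level of Pdgfa was 60.6%, 50.5% and 18.5% of the macrophage level. For the reference genes C1qa, C1qb, C1qc, Apoe and Lyz2 this ratio was 1.19% to 2.00%, 1.45% to 2.36% and 1.06% to 4.89%. The part of macrophage RNA in these NK values was otherwise not tested.

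Pdgfb was lower in BrM macrophages of the well-filled libraries but did not pass the test over all libraries. It had 34.2, 49.8 and 49.5 CPM in BrM macrophages, against 120, 39.2 and 81.3 CPM in MFP macrophages. MFP 2, at 5 UMIs, lay among the BrM values. The edgeR difference was -0.78 ± 0.25 on the log2 scale (adjusted p = 0.121). It passed the threshold with the kind of library, by macrophage content, as a term (-0.70, adjusted p = 0.0105, where 7.03% of genes and 5 members were called), with a stricter gate (-0.81, adjusted p = 0.0132) and, chosen after seeing the data, in BrM 2 and BrM 3 against MFP 3 alone (-0.55, adjusted p = 0.00189, where 21.6% of genes and 6 members were called). The comparison of those 3 libraries has 1 MFP library, assumed to vary like BrM. Each of the 3 parts of the class that both sites held had lower values in BrM 2 and BrM 3 than in MFP 3. The Vcam1 H2-M2 part had 56.6 and 48.7 CPM in BrM 2 and BrM 3, against 99.9 CPM in MFP 3.

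Pdgfb in lymphocytes was lower than in macrophages of the same library. NK cells had 25.2, 18.2 and 20.8 CPM in BrM, against 31.0, 31.0 and 28.6 CPM in MFP, and T cells had 7.26, 8.50 and 8.88 CPM in BrM, against 12.8, 11.9 and 14.5 CPM in MFP. The sites did not overlap in either class (exact permutation test, p = 0.1 for each, the smallest possible), beside 17.7% of all genes in NK cells and 17.2% in T cells. Of 40 such tests over 5 classes, 4 had sites that did not overlap, and in monocytes this was 0 members beside 18.2% of genes. Microglia-like cells had the highest level of any class, at 131 and 134 CPM in BrM 2 and BrM 3, and B cells had 0 to 5.55 CPM in BrM and 0 to 1.31 CPM in MFP.

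Vegfa was found in macrophages and at comparable levels in several other classes. Macrophage-like cells had 46.4, 111 and 145 CPM in BrM, against 44.7, 0 and 180 CPM in MFP. The spread within a site exceeded any difference between the sites, with an edgeR difference of 0.12 ± 0.47 (adjusted p = 0.952) whose sign changed under several alternatives. NK cells had 145, 151 and 181 CPM in BrM and 180, 177 and 196 CPM in MFP. Neutrophils had 61.7 and 86.4 CPM in BrM 2 and BrM 3, against 404 CPM in MFP 3, the only MFP library with enough neutrophils, so this difference has no replicate check. Vegfa in T cells was 6.05, 9.11 and 13.4 CPM in BrM, against 14.2, 15.3 and 34.3 CPM in MFP. The sites did not overlap (exact permutation test, p = 0.1, the smallest possible), beside 17.2% of all genes tested in T cells. Microglia-like cells were low, at 16.8 and 21.8 CPM in BrM 2 and BrM 3.

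Within macrophages of BrM 2, BrM 3 and MFP 3, Vegfa was highest in the lipid-associated part. In BrM 1, MFP 1 and MFP 2 each part held at most 14 UMIs of Vegfa, so the parts were not ranked there. The lipid-associated part had 160 and 203 CPM in BrM 2 and BrM 3 and 342 CPM in MFP 3. Resident-like macrophages of MFP 3 had 13.4 CPM. Of the 18 hypoxia response genes tested, Vegfa not among them, 0 rose and 2 fell in BrM macrophages, against 2.64% of all genes called in either direction, and their median log2 difference was -0.36, against -0.03 for all genes. Pdk1, a kinase that restrains pyruvate entry into mitochondria, fell to 14.1 ± 2.79 CPM in BrM, against 24.6 ± 1.18 CPM in MFP (log2 difference -0.84, adjusted p = 0.0126), and Ankrd37 fell to 17.1 ± 6.52 CPM in BrM, against 27.98 ± 3.47 in MFP (log2 difference -0.74, adjusted p = 0.0473; SD, n = 3 libraries each). Of the other ligands of the platelet-derived and vascular endothelial families, 3 of 6 were tested and Pdgfc alone was called. It fell in BrM by edgeR (log2 difference -1.47, adjusted p = 0.0203). Pdgfc averaged 4.67 ± 0.619 CPM over BrM and 21.03 ± 23.2 CPM over MFP, where 1 MFP library held 47.0 CPM. That MFP mean counts MFP 1 and MFP 2, with 425410 and 127665 macrophage UMIs, as much as MFP 3, with 32032100. Of the 7 receptors of these families, 5 were tested and 0 were called. Nrp1, a co-receptor, led them, averaging 60.1 ± 3.02 CPM over BrM and 49.8 ± 17.8 over MFP. Nrp2 followed, averaging 20.7 ± 4.29 over BrM and 18.1 ± 7.9 over MFP.

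**Figure D2:**
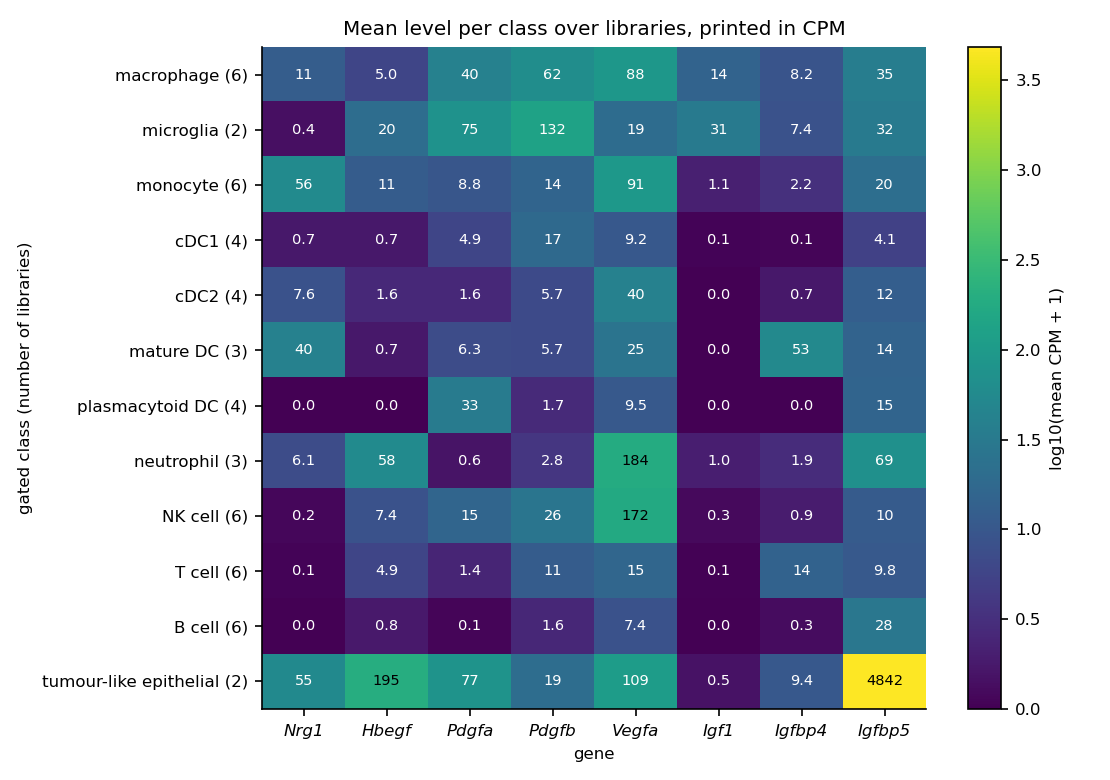
Mean level of each gene per gated class over the libraries with at least 20 cells of the class, printed in CPM and coloured by log10(mean CPM + 1). The number of libraries stands in brackets, both sites together. Oligodendrocyte-like cells, which passed that limit only in BrM 3 with 27 cells, are not drawn. Igfbp5 averages 4842 CPM in tumour-like cells and 35 CPM in macrophages, Nrg1 is highest in monocytes and tumour-like cells, Pdgfb in microglia, and Igf1 in microglia and macrophages.

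Igf1 was found in macrophages and microglia and at low levels elsewhere. Microglia-like cells had 39.3 and 21.8 CPM in BrM 2 and BrM 3. Macrophage-like cells had 2.44, 13.1 and 9.62 CPM in BrM, against 4.70, 23.5 and 28.9 CPM in MFP, values that rest on 1, 313 and 198 UMIs for BrM, against 2, 3 and 924 for MFP. The sites overlap because MFP 1 lies below BrM 2 and BrM 3. T cells had at most 0.0612 CPM in BrM and 0.25 in MFP, monocytes at most 2.43 in BrM and 4.02 in MFP, and B cells 0. Igf1 fell by 1.13 ± 0.25 on the log2 scale in BrM macrophages (edgeR, adjusted p = 0.0221), and the call was lost, among other settings, by DESeq2 and limma voom, with no filter and without MFP 2 (-1.09, adjusted p = 0.0705). Igf1 and Igfbp4 were too low to test without BrM 2, BrM 3 or MFP 3.

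Resident-like macrophages held more than the rest of the class of the Igf1 and Igfbp4 counts of MFP 3. These cells, gated on Mrc1, Folr2, Lyve1, Cd163, Gas6 and Cbr2, numbered 0, 2 and 1 in BrM and 1, 1 and 212 in MFP. Their markers summed to 73.2, 44.3 and 34.3 CPM in the whole macrophage gate of BrM, against 30.6, 431 and 537 CPM in that of MFP. In MFP 3 they were 9.27% of macrophages and held 55.1% of the class's Igf1 UMIs, 66.1% of its Igfbp4 UMIs and 43.8% of its Hbegf UMIs, but 0.536% of its Vegfa UMIs. Their level of Igf1 was 220 CPM, against 46.6, 4.34 and 14.5 CPM in the lipid-associated, Vcam1 H2-M2 and other macrophages of that library. With these cells left out, an alternative chosen after seeing the data, the edgeR difference of Igf1 was -0.17 ± 0.26 (adjusted p = 0.855) and 1.7% of genes and 2 members were called. Lipid-associated macrophages were the next highest part, at 35.8 and 21.4 CPM in BrM 2 and BrM 3.

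Igfbp4 followed the same cells in macrophages. It had 2.44, 5.85 and 4.86 CPM in BrM macrophages, against 2.35, 15.7 and 18.0 CPM in MFP macrophages. The values of BrM 1, MFP 1 and MFP 2 rest on 1, 1 and 2 UMIs, and those of MFP 2 came from 1 resident-like cell. The sites overlap (exact permutation test, p = 0.4). Igfbp4 fell by 1.51 ± 0.28 on the log2 scale in BrM (edgeR, adjusted p = 0.00474). Without the resident-like cells the difference was -0.16 ± 0.29 (adjusted p = 0.887). DESeq2, limma voom and the fit with no filter did not call it. Resident-like macrophages of MFP 3 had 165 CPM, against 6.02 to 7.44 CPM in the other 3 parts. T cells had 19.8, 5.99 and 12.5 CPM in BrM and 13.3, 14.6 and 15.0 CPM in MFP, which is 102.5% and 258% of the macrophage level in BrM 2 and BrM 3 and 83.4% in MFP 3. NK cells were lower, at 0.443 and 2.08 CPM in BrM 2 and BrM 3 and 0.723 CPM in MFP 3, and B cells had 0 UMIs in these libraries. The part of free RNA in the sums outside the resident-like cells was not tested.

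The highest class for Igfbp4 was mature dendritic cells of the brain tumours. They had 75.2 and 76.7 CPM in BrM 2 and BrM 3, from 99 and 108 UMIs, against 6.32 CPM in MFP 3, from 2 UMIs in 31 cells. The exact Poisson intervals, which cover counting error only, were 61.1 to 91.5 and 62.9 to 92.6 CPM in BrM and 0.765 to 22.8 CPM in MFP 3. With 1 MFP library holding at least 20 such cells, the difference was not tested.

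**Figure D3:**
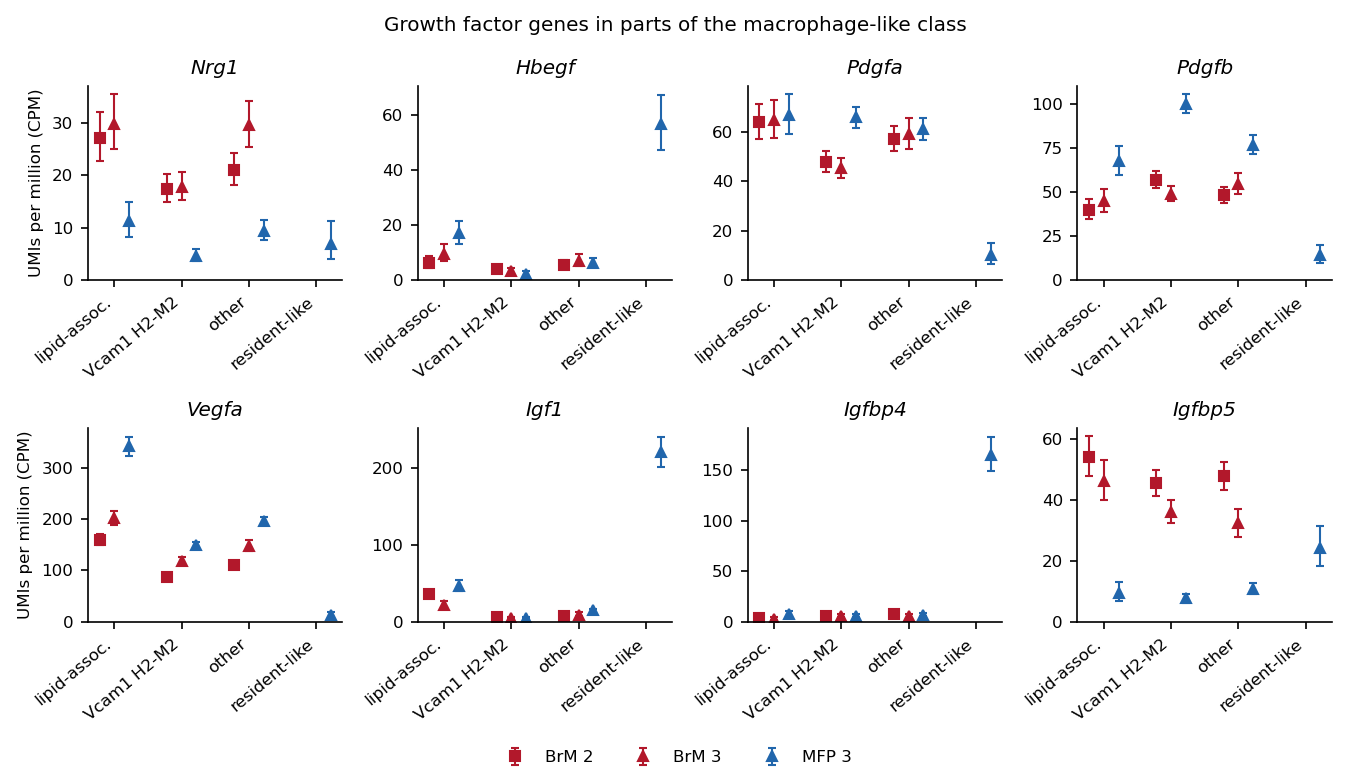
Level of each gene in parts of the macrophage class, in CPM on linear axes, for BrM 2 (red squares), BrM 3 (red triangles) and MFP 3 (blue triangles), the libraries with many macrophages. Bars are exact Poisson 95% intervals; resident-like cells reached 20 cells only in MFP 3, where Igf1 stands at 220 CPM, Igfbp4 at 165 CPM and Hbegf at 56.7 CPM, while Nrg1 is lower in MFP 3 than in BrM in each of the other 3 parts.

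Igfbp5 was far higher in tumour-like cells than in any immune class, and its level in macrophages was close to that in B cells in 4 of the 6 libraries and above that in T and NK cells in 5 of the 6. Tumour-like cells had 4383 CPM in BrM 2 and 5301 in MFP 3, and neutrophils, the next class, 102 and 79.2 CPM in BrM 2 and BrM 3 and 27.2 CPM in MFP 3. Macrophage-like cells had 31.7, 48.2 and 37.3 CPM in BrM, against 11.8, 70.5 and 10.2 CPM in MFP. B cells, a lymphoid class, had 27.9, 44.4 and 39.1 CPM in BrM and 30.2, 18.0 and 10.1 CPM in MFP. These B cell values rest on few UMIs, 42, 8 and 11 in BrM and 23, 15 and 2 in MFP. T cells had 6.78, 17.98 and 8.61 CPM in BrM and 9.17, 12.4 and 4.16 CPM in MFP, and NK cells had 8.31, 14.6 and 9.16 CPM in BrM and 12.8, 13.5 and 3.98 CPM in MFP.

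The macrophage level divided by the B cell level was 1.14, 1.09 and 0.954 in BrM and 0.389, 3.92 and 1.00 in MFP, where MFP 1 and MFP 2 rest on 5 and 9 macrophage UMIs. In the libraries with many macrophages Igfbp5 was also set against Krt8 and Krt18, keratins of epithelial cells. In BrM 2 the ratio of Igfbp5 to the sum of both keratins was 1.39 in tumour-like cells and 0.892 to 2.08 in macrophages, microglia, monocytes, T, NK and B cells. In MFP 3 it was 0.634 in tumour-like cells and 0.652 to 1.14 in the same immune classes other than microglia. In BrM 3, where tumour-like cells were too few, those immune classes spanned 1.87 to 3.67. The B cell ratios rest on 6, 3 and 2 keratin UMIs in BrM 2, BrM 3 and MFP 3. No profile of empty droplets was used here, so how much of the macrophage level is RNA of tumour cells was not tested. The edgeR difference in macrophages was 1.98 ± 0.34 (adjusted p = 0.00322). All BrM values lay within the MFP range, with means of 39.1 CPM in BrM and 30.8 in MFP (exact permutation test, p = 0.8). The edgeR call was lost, among other settings, by DESeq2 and limma voom and with no filter. It was also lost without BrM 2 (1.31), without BrM 3 (1.64) and without MFP 3 (0.64, adjusted p = 0.900). Markers of tumour-like cells were at a summed 42.2 to 100 CPM in the macrophage gate of BrM, with 7 to 12 of 13 detected, and at 29.9 to 86.2 CPM in that of MFP, with 5 to 12 detected.

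**Figure D4:**
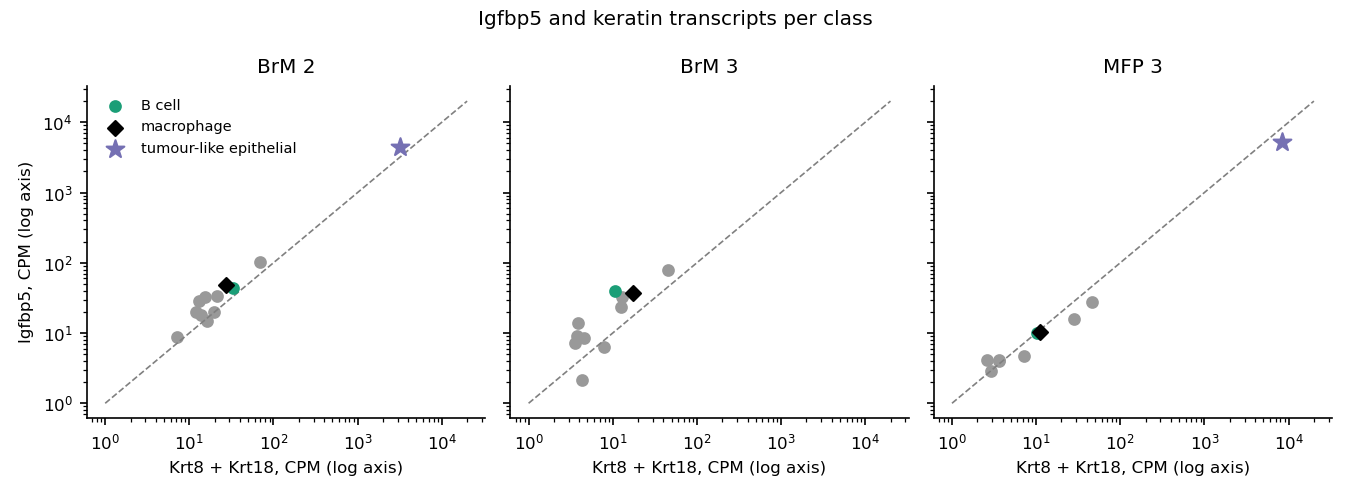
Igfbp5 against the sum of Krt8 and Krt18 per gated class, both in CPM on log axes, in BrM 2, BrM 3 and MFP 3. Diamonds are macrophages, green circles B cells, stars tumour-like cells (fewer than 20 in BrM 3, not drawn) and grey circles the other classes with at least 1 UMI of each; the dashed line marks equal levels. Macrophages and B cells lie close together, at 48.2 and 44.4 CPM of Igfbp5 in BrM 2 and 10.2 and 10.1 CPM in MFP 3. Those B cell values rest on 8 UMIs in BrM 2 and 2 UMIs in MFP 3.

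Of 17 other genes of the insulin-like growth factor axis, 6 were tested in macrophages and 0 were called. Irs2, an adaptor of the insulin and IGF1 receptors, averaged 50.5 ± 5.76 CPM over BrM and 40.5 ± 28.8 over MFP (log2 difference 0.04, adjusted p = 0.977). Igfbp7 had 2.55 ± 0.999 CPM in BrM and 14.0 ± 21.8 CPM in MFP, where 1 library held 39.2 CPM. That MFP mean counts MFP 1 and MFP 2, with few macrophage UMIs, as much as MFP 3. The edgeR log2 difference was 1.64 (adjusted p = 0.380), so the fitted difference and the means run in opposite directions. The receptor gene Igf1r averaged 3.26 ± 0.72 CPM over BrM and 2.79 ± 4.83 over MFP (log2 difference -0.95, adjusted p = 0.143; SD, n = 3 libraries each), again in opposite directions, with 2 MFP libraries at 0 and MFP 3 at 8.37 CPM. Of 18 other growth factor genes tested, 0 rose and Tgfb3, which encodes transforming growth factor beta 3, fell (edgeR log2 difference -1.15, adjusted p = 0.0379). It had 14.6, 10.6 and 10.3 CPM in BrM, against 0, 0 and 29.0 CPM in MFP. MFP 3 thus lay above every BrM library and MFP 1 lay below. MFP 2 had 127665 macrophage UMIs, and the BrM levels of Tgfb3 would lie under the floor of 3 UMIs there. Its 0 is therefore not resolved from BrM.

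Counted over the members in macrophages, all 8 were tested and 4 were called, 2 higher (Nrg1, Igfbp5) and 2 lower (Igf1, Igfbp4) in BrM, beside 295 of 11165 genes or 2.64% over all genes. Since the members were named with results known, nothing is read from that excess. Without the resident-like cells Igf1 and Igfbp4 were not called, Igfbp5 was called at 2.13 ± 0.33 (adjusted p = 0.00161), and Nrg1 was called at 1.74 ± 0.22 (adjusted p = 0.000254). In monocytes 5 members were tested and 0 were called, where 69 of 7013 genes or 0.984% were called. Their log2 differences lay between -0.15 for Pdgfb and 0.98 for Igfbp5, and 968 genes passed an unadjusted p of 0.05 by edgeR. DESeq2 called 79 genes or 1.13% and 0 members, with 505 genes at an unadjusted p under 0.05. The kind of library as a term called 2.52% of genes and 0 members, and BrM 2 and BrM 3 against MFP 3 alone called 2.77% and 1 member, Igfbp5 (2.70, adjusted p = 0.0046). In type 2 conventional dendritic cells, the Cd209a+ cells that prime helper T cells, 4 members were tested and 0 were called, where 130 of 9114 genes or 1.43% were called. That fit had 1 MFP library, which is assumed to vary like the BrM libraries, so its calls and those of its alternatives compare BrM with MFP 3 and have no replicate check for MFP. In it 1084 genes passed an unadjusted p of 0.05. DESeq2 called 0.549% of genes and 0 members, with 340 genes at an unadjusted p under 0.05. Vegfa (0.94) and Igfbp5 (1.82) were called with the kind of library as a term, where 15.2% of genes were called, and in BrM 2 and BrM 3 against MFP 3 alone, where 15.9% were. Both settings rest on the same libraries and are not separate checks, since the term only sets BrM 1, with few macrophages, apart from the others. Vegfa in type 2 dendritic cells had 16.2, 60.02 and 54.9 CPM in BrM, against 30.9 CPM in MFP 3.

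**Figure D5:**
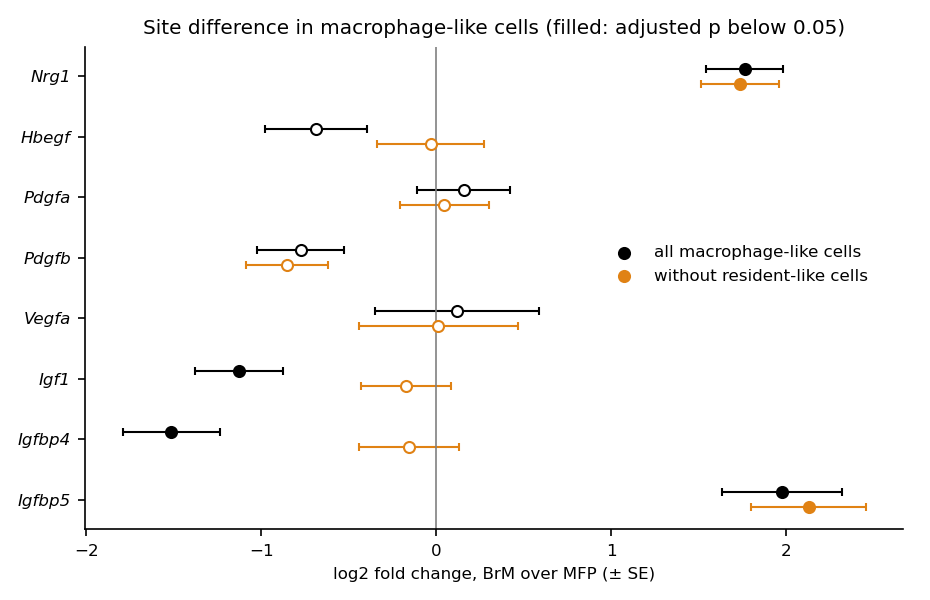
Log2 fold change of each gene in macrophage-like cells, BrM over MFP, with its standard error, by edgeR with all macrophages (black) and without resident-like cells (orange). Filled points passed an adjusted p of 0.05: Nrg1 stands at 1.76 and 1.74, while Igf1 stands at -1.13 with all macrophages and -0.17 without resident-like cells.

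The genes whose levels most resembled each member were found over 53 sums of class and library in 13 classes, as Pearson's r of log2(CPM + 5) among 22658 genes. The sums share libraries, depth and gated classes, so r is a description. Nrg1 was most like Dram1, Zfyve9 and Rnf217 (r = 0.81, 0.81 and 0.80), and Hbegf was most like Zfp651, Csf3 and F3 (r = 0.90, 0.89 and 0.84). Pdgfa was most like Itm2b, Glmp and Tanc2 (r = 0.84, 0.81 and 0.79), Pdgfb was most like Mag, Tmem37 and Tmem159 (r = 0.80, 0.77 and 0.76), and Vegfa was most like Selenon, Zmiz1 and Fbxo30 (r = 0.76, 0.72 and 0.72). Igf1 was most like C4b, Scamp5 and Pmp22 (r = 0.94, 0.93 and 0.91), and Igfbp4 was most like Cd70, Socs2 and Npb (r = 0.76, 0.74 and 0.74), of which Socs2 was a marker of the mature dendritic gate. Igfbp5 was most like Cald1, Krt18 and Ecrg4 (r = 0.94, 0.92 and 0.92), of which Krt18 was a marker of the tumour-like gate.

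In the GENCODE M21 annotation of GRCm38, all 8 are protein-coding genes on 8 different chromosomes. Nrg1 lies at chr8:31814551-32884029, Pdgfa at chr5:138976014-138997370, Pdgfb at chr15:79995874-80014977, Vegfa at chr17:46016993-46032369 and Igfbp5 at chr1:72857932-72874884, all on the minus strand. Igf1 at chr10:87858265-87937042 and Igfbp4 at chr11:99041244-99054392 lie on the plus strand, and Hbegf lies on chromosome 18.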

How the data were processed

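The values the authors deposited are UMI counts for each gene in each barcode, not normalised, made with Cell Ranger 4.0 on genome build mm10, per the submitters' processing notes. No annotation release is given there. The deposited barcode and gene lists name the columns and rows of those counts and carry no measured values. Titles gave each library's site and number.

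Of 49518 barcodes, 2627 with under 500 UMIs, under 200 genes or over 10% mitochondrial UMIs were left out, and then the 7% of cells with the highest Scrublet score per library (scanpy 1.11.5, Python 3.11.15), 3283 cells, because Scrublet's own threshold marked under 0.5% of cells in 4 libraries. Each cell was scored for 23 marker lists as the mean of log-normalised levels (10000 UMIs per cell), each marker scaled by its 95th percentile among positive cells. The class was the highest score of at least 0.2 with a margin of 0.05. Microglia-like cells were macrophage-lineage cells with a microglia score of at least 0.3, and 2783 cells stayed unassigned. Parts of the macrophage class needed a score of 0.3 and a margin of 0.1. The score limits were set after the data had been seen, and 198 of 6480 macrophage-like cells lay within 0.05 of the score or margin limit. Within 0.05 of the microglia limit lay 2, 113 and 91 macrophage-like or microglia-like cells in BrM and 0, 0 and 15 in MFP. Gated classes are named from transcripts only.

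Counts were summed per library and class, with libraries under 20 cells left out. BrM was compared with MFP by edgeR 4.0.16 (R 4.3.3; quasi-likelihood test, TMM, filterByExpr, no covariates), adjusted by Benjamini-Hochberg over all genes tested of the class at a threshold of 0.05. DESeq2 1.42.0 and limma 3.58.1 were alternatives. Tested on simulated data with gene-wise dispersions taken from the macrophage sums, the edgeR test called more unchanged genes than its threshold allows. Permutation tests were exact and two-sided (scipy 1.17.1). Shares were computed on cells thinned to 2000 UMIs, leaving out 11, 50 and 58 macrophage-like cells in BrM and 12, 5 and 88 in MFP. Intervals are exact at 95%, floors are 3 UMIs, and both cover counting error only.

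The members and lists were chosen with earlier results of these data known. Named genes are the 8 members, in each list those called (or the 2 highest in macrophages where none was called), and the 3 genes most like each member; Igf1r was named after its values were seen. The alternatives without resident-like cells, with 3 libraries only and by limma voom were added after the data had been seen.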

Additional observations from a re-analysis of the deposited data

How the results depend on the processing

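The count of 295 genes called in macrophages was 3 by DESeq2, 193 with no filter, 785 with the kind of library as a term and 555 with a stricter gate. Among alternatives added after the data had been seen it was 2820 in BrM 2 and BrM 3 against MFP 3, 0 by limma voom and 190 without resident-like cells. Leaving out each library gave 0 to 707, with 0 without BrM 2 or BrM 3 and 2 without MFP 3, where 4 members, Nrg1 not among them, were tested. For monocytes, 69 became 361 with no filter, 177 with the kind of library, 42 with doublet scores kept, 36 with at least 50 cells, 32 with a stricter gate and 245 in BrM 2 and BrM 3 against MFP 3, and leaving out each library gave 15 to 104. For type 2 dendritic cells, 130 became 50 by DESeq2, 511 with no filter, 1382 with the kind of library, 28 with at least 10 cells, 525 with a stricter gate, 213 by limma voom, and 1438 with at least 50 cells or in BrM 2 and BrM 3 against MFP 3. Leaving out each BrM library gave 89 to 1438, and leaving out MFP 3 was not possible. A single library left in a site is assumed to vary like the other site.

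With the replicate block 107 genes and 1 member, Nrg1 (1.92, adjusted p = 0.00159), were called in macrophages by edgeR; adjusted p was 0.0638 for Igf1, 0.0522 for Igfbp4 and 0.123 for Igfbp5. The libraries share only a number: same-numbered libraries correlated at -0.06, -0.18 and 0.20 in their deviations from the site means.

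Of 242 values of members under the alternatives, 186 kept direction and side of the threshold, 13 passed it newly, 21 lost it and 22 turned direction, none of them called with all libraries. These values are not all separate checks. In macrophages and monocytes, the setting of at least 10 cells repeated the main fit, and that of at least 50 cells repeated the fit without MFP 2. In type 2 dendritic cells, at least 50 cells, without BrM 1, and BrM 2 and BrM 3 against MFP 3 were the same fit. In macrophages Pdgfa was -0.0096 to 1.01 with each library left out, turning without MFP 1. Vegfa was -0.19 to 1.70 with each library left out, turning without MFP 1, MFP 2 or BrM 3, and was -0.24 with the kind of library, -0.087 with at least 50 cells, -0.13 with doublet scores kept and -0.34 in BrM 2 and BrM 3 against MFP 3. In monocytes Nrg1 was -0.070 with a stricter gate and -0.094 in those 3 libraries. Pdgfb there was -0.67 to 0.19 with each library left out, turning without BrM 1 or MFP 1, 0.022 with the replicate block, 0.18 in those 3 libraries and 0.18 by limma voom. Hbegf was -0.028 to 0.026 with each library left out, turning without MFP 1 or MFP 2, 0.026 with at least 50 cells, 0.39 with doublet scores kept, 0.059 in those 3 libraries and 0.00070 by limma voom. Igfbp5 was -0.18 to 1.72 with each library left out, turning without MFP 3. The cause was not tested.

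The mean share of macrophage-like cells with a UMI was higher without thinning: 6.26% for Nrg1, 22.7% for Pdgfa, 29.4% for Pdgfb, 5.85% for Igf1, 27.6% for Vegfa, 3.17% for Hbegf, 4.60% for Igfbp4 and 22.5% for Igfbp5, against 1.40% to 11.6% thinned. Depth limits BrM 1, MFP 1 and MFP 2, whose members rest on 0 to 51 macrophage UMIs.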
